A study of Mus musculus with 64 samples.

Results

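Echs1, Hadh, Acadm, Etfa and Hsd17b4 encode enzymes of fatty acid oxidation in mitochondria and peroxisomes, and their levels were followed in mouse liver from the suckling age to old age. These 5 genes are 5 of the 7151 genes measured, and they were selected on values of these mice: they lay higher in young adults than in juveniles. That contrast is therefore given as a description without a test, and tests were run on other contrasts, of which those among juveniles or with young adults share mice with it. Every probe whose annotation names 1 gene and that gene is one of the 5 was taken, which gave 6 probes: Echs1, Acadm and Hsd17b4 on membrane A, and Hadh, Etfa and a further Hsd17b4 probe on membrane B. None of them was removed by a filter.

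In the mitochondrial spiral, acyl-CoA dehydrogenases such as the medium-chain enzyme Acadm open each round and pass their electrons to the electron transfer flavoprotein, of which Etfa is the alpha subunit. Echs1 then adds water to the short-chain enoyl-CoA, and Hadh oxidises the resulting 3-hydroxyacyl-CoA before a thiolase releases acetyl-CoA. Hsd17b4 is the peroxisomal multifunctional enzyme that carries out the hydration and the second oxidation on very long-chain and branched substrates and on bile acid intermediates. Liver burns much fat while pups live on milk, and the nuclear receptor PPAR alpha is a well-known activator of these genes.

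The study measured liver RNA of 32 C57BL/6 mice, all on regular feed ad libitum, by 33P-labelled cDNA on a pair of nylon membranes per mouse. The juveniles were 4 males and 4 females of 17 to 44 days, the young adults 5 males and 4 females of 174 to 194 days, the middle-aged mice 3 males and 4 females of 479 to 499 days, and the old mice 4 males and 4 females of 712 to 743 days. Among juveniles, 3 mice were 17 to 21 days old and 5 were 33 to 44 days old, ages at which pups of this species usually suckle and are usually weaned, although the labels do not record weaning. No mouse carried an allele or received an agent by the labels, and each mouse was 1 animal of its own.

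A value is a z-score within its array, so that levels and differences are in standard deviations over the probes of an array (array SD), and no fold change can be had from them. The files hold no signal over background. The hepatocyte genes Alb, Apoa1 and Ttr lay at percentiles 99.9, 99.3 and 95.7 of their membrane. Male juvenile replicate 2, a 44-day male, stood far from the others on the first principal component (73.1, against -47.0 to 21.7 in the other mice), a component that held 37.7% of the variance. The sex-linked genes Xist, Uty and Eif2s3y did not separate adult females from adult males (female minus male -0.1, -0.0618 and -0.0278 array SD, adjusted p = 1 for each by limma), so a test of sex cannot be checked against them. One old male has a description that names another mouse than its title.

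The promoters of Acadm and Echs1 are shown because they alone among the promoters looked at hold the letters AGGTCA, the hexamer that many nuclear receptors, PPAR alpha among them, recognise. The RefSeq promoter table (GRCm38.p6) holds 4 of the 5 genes, all but Hsd17b4. The windows run over the 250 bases before the start, 5′ to 3′ on the gene's strand; Acadm is at chr3:153944644-153944893 and Echs1 at chr7:140116422-140116671, both on the minus strand, and capitals mark the hexamer or its reverse complement.
Acadm: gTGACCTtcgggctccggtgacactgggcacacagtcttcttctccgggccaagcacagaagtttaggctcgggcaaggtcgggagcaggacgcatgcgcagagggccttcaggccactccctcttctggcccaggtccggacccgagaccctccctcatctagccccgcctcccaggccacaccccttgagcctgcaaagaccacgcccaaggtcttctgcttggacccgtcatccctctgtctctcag
Echs1: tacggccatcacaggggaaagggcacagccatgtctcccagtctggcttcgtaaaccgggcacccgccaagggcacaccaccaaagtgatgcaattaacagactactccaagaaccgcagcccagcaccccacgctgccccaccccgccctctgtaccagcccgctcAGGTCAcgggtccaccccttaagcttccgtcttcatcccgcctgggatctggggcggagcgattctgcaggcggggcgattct
The match starts 249 bases before the start in Acadm, on the opposite strand, and 83 bases before it in Echs1, on the gene's own strand. On both strands of windows of 300 bases, from 250 before to 50 after the start, AGGTCA occurs in 16.3% of 32851 promoters. Neither AGGTCANAGGTCA (0.0396% of promoters) nor TCAAGGTCA (0.423%), both of which contain AGGTCA, was found in the 4 promoters. These matches describe letters and not binding.

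The 6 probes differed widely in level. Echs1 was the brightest of the 6, at 1.28 ± 0.296 array SD (SD, n = 32), percentile 90.8 of its membrane. Etfa followed at 0.329 ± 0.181 (percentile 64.7) and the Hsd17b4 probe of membrane A at 0.179 ± 0.211 (percentile 60.8). Hadh, at -0.139 ± 0.218, the Hsd17b4 probe of membrane B, at -0.384 ± 0.142, and Acadm, at -0.453 ± 0.242, lay below the mean of their arrays. The levels belong to probes of unlike sequence and are no measure of how abundant one transcript was against another.

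Acadm, the entry to the medium-chain spiral, read -0.70, -0.54 and -0.40 array SD in the mice of 19, 21 and 17 days. It read -0.80, -0.79, -0.48, -0.20 and -0.56 in those of 43, 44, 40, 40 and 33 days. The juvenile ranges overlapped throughout. In young adults Acadm had a lowest, median and highest level of -0.71, -0.37 and 0.08, in middle-aged mice of -1.05, -0.48 and -0.17, and in old mice of -0.69, -0.31 and 0.08. Young adults and old mice thus shared nearly the same range, with middle-aged mice lower at both ends, but these ends rest on single mice. The -1.05 was 1 female, and the next lowest middle-aged mouse read -0.62. Each 0.08 was also 1 mouse, and the next highest read -0.26 in young adults and -0.27 in old mice.

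Etfa, which takes the electrons on to the respiratory chain, read 0.34, 0.46 and 0.37 array SD in the female of 19 days, the female of 21 days and the male of 17 days. In the mice of 33 to 44 days it read 0.24 (43-day male), -0.22 (44-day male), 0.30 (40-day female), 0.17 (40-day male) and 0.20 (33-day female), so that all 5 lay below all 3 younger mice. Of all probes, 1.43% had every mouse of 33 to 44 days below every mouse of 17 to 21 days. The lowest, median and highest levels of Etfa were 0.01, 0.51 and 0.59 in young adults, 0.24, 0.40 and 0.49 in middle-aged mice, and 0.10, 0.265 and 0.58 in old mice. The lowest young adult, a female at 0.01, lay far under the other 3 young adult females, which read 0.55 to 0.59.

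Echs1, the short-chain hydratase, read 1.40, 1.09 and 1.32 array SD in the mice of 19, 21 and 17 days, and 1.21, -0.05, 1.43, 1.00 and 0.95 in those of 43, 44, 40, 40 and 33 days. The -0.05 of the 44-day male was the lowest of all 32 mice, and no other juvenile was below 0.95. Adults varied little: the lowest, median and highest levels were 1.19, 1.39 and 1.66 in young adults, 1.20, 1.30 and 1.49 in middle-aged mice, and 1.06, 1.29 and 1.52 in old mice.

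Hadh, which oxidises the 3-hydroxyacyl-CoA that Echs1 makes, read -0.31, -0.05 and -0.04 array SD at 19, 21 and 17 days, and -0.19, -0.83, -0.19, -0.31 and -0.36 in the mice of 43, 44, 40, 40 and 33 days. The 44-day male was again the lowest of all 32 mice. Young adults ran from -0.31 over a median of -0.07 to 0.16, middle-aged mice from -0.36 over -0.16 to 0.00, and old mice from -0.27 over -0.095 to 0.37. The old mice had the widest spread of the adult classes, with a female and a male well above the rest.

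The peroxisomal enzyme Hsd17b4 read 0.03, 0.28 and -0.14 array SD on membrane A in the mice of 19, 21 and 17 days, and 0.19, -0.40, 0.37, -0.01 and 0.32 in those of 43, 44, 40, 40 and 33 days. On membrane B its other probe read -0.58, -0.41 and -0.38, and then -0.56, -0.49, -0.35, -0.20 and -0.42. Neither probe parted the juvenile ages. The adult classes had medians of 0.28, 0.10 and 0.305 on membrane A, and of -0.41, -0.35 and -0.41 on membrane B, from young adult to old. Across the 32 mice the Hsd17b4 probes of membranes A and B had a correlation of 0.379.

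**Figure D1:**
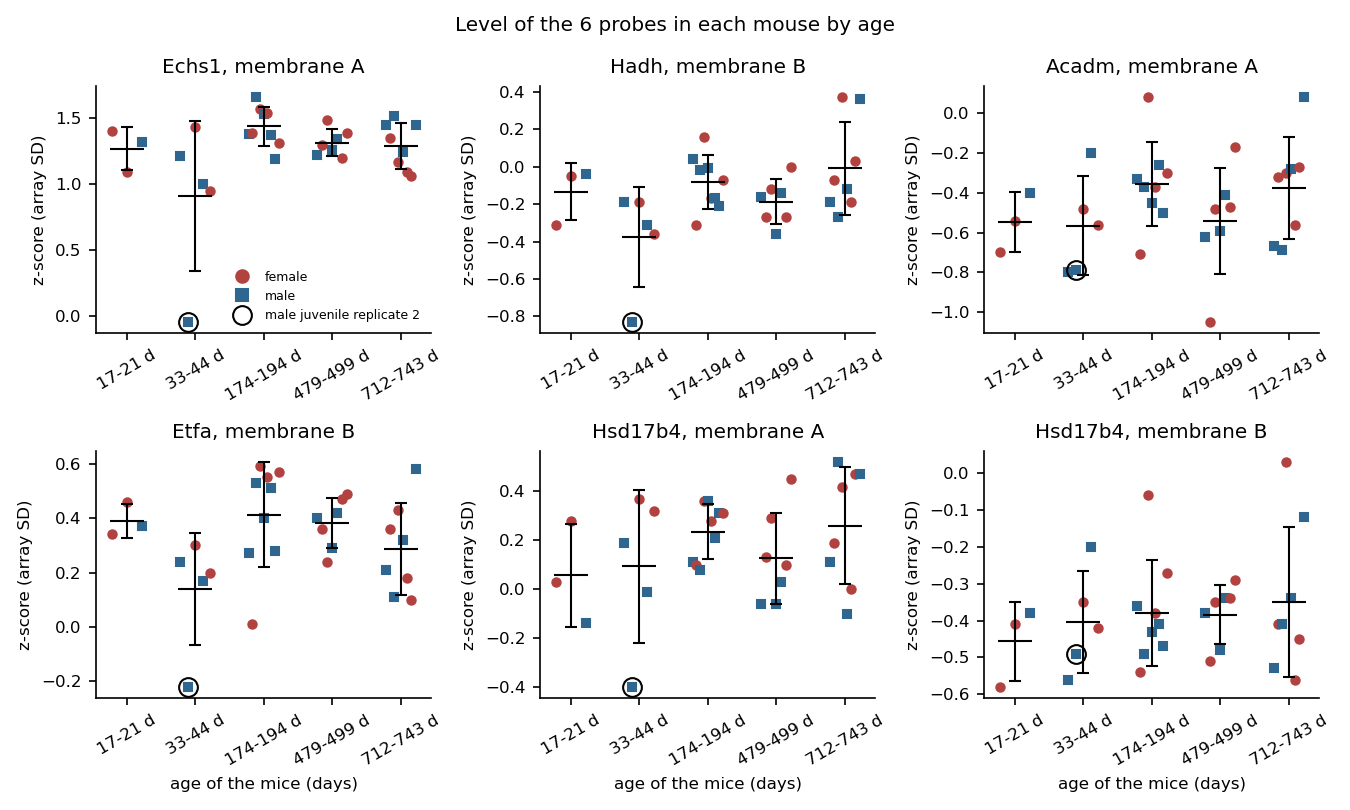
Each panel plots 1 probe: the z-score in array SD against the age of the mice, with circles for females, squares for males, and the mean with its SD for each age class (3, 5, 9, 7 and 8 mice). The ringed 44-day male is the lowest mouse for Echs1, Hadh, Etfa and the Hsd17b4 probe of membrane A, while the adult classes overlap in every panel.

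As a description of the contrast on which the genes were selected, young adults minus juveniles came to 0.396 ± 0.128 array SD (SE) for Echs1, 0.205 ± 0.124 for Acadm, 0.199 ± 0.102 for Hadh and 0.181 ± 0.088 for Etfa. For Hsd17b4 it came to 0.158 ± 0.0991 on membrane A and 0.0515 ± 0.0775 on membrane B. The 44-day male carried much of it: without that mouse the differences were 0.242 for Echs1, 0.118 for Hadh and 0.121 for Etfa.

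The step from the suckling to the weaned age was estimated within sex, as mice of 33 to 44 days minus mice of 17 to 21 days, with the means of all 8 groups of sex and age class in the fit. It rests on the same 8 juveniles whose low values entered the selection, the 44-day male among them, so it is not independent of the choice of genes and supports nothing beyond its values. Of the 6 probes, 4 lay below 0 and 2 above, and none passed the threshold of an adjusted p of 0.05 (limma, Benjamini-Hochberg over 16896 probes). The largest was Echs1 at -0.289 ± 0.195 array SD (95% interval -0.688 to 0.111, lower than the younger mean in 4 of 5 mice). Hadh came to -0.227 ± 0.154 (-0.544 to 0.0898) and Etfa to -0.217 ± 0.133 (-0.489 to 0.055), each lower in 5 of 5 mice, with adjusted p = 0.891 for these 3 genes by limma. Acadm came to -0.0271 ± 0.196, and Hsd17b4 to 0.137 ± 0.154 on membrane A and 0.0471 ± 0.122 on membrane B.

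No probe of the whole table was called for this step (0%), and 371 (2.2%) had an unadjusted p under 0.05, none of the 6 among them. Without the 44-day male the step was -0.119 for Echs1, -0.141 for Hadh and -0.156 for Etfa. Other omissions enlarged it for Echs1, to -0.456 without female juvenile replicate 3 and -0.54 without the 6 mice at the low end of the first component, which include that female and female juvenile replicate 2. The single male of the suckling age, 17 days old, mattered as much: without it, when females alone give the value, the step was -0.055, -0.095 and -0.150. The title numbers fall into 5 sets that each span the ages, and with these sets as a block the values were -0.293, -0.29 and -0.247.

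Among adults, middle-aged and old mice took no part in selecting the genes. Old minus middle-aged came to 0.182 ± 0.108 array SD for Hadh (95% interval -0.0397 to 0.405, higher than the middle-aged mean in 5 of 8 mice), 0.165 ± 0.132 for Acadm and 0.154 ± 0.106 for the Hsd17b4 probe of membrane A. Etfa came to -0.0938 ± 0.0939 and lay lower in 6 of 8 old mice, Echs1 to -0.0179 ± 0.137, and the Hsd17b4 probe of membrane B to 0.0375 ± 0.0828. All 6 intervals included 0, with adjusted p from 0.653 to 0.959 by limma. The spread was estimated with the juveniles, and with adults alone the SE of Echs1 was 0.0874. Without the old male whose description differs from its title, Hadh came to 0.218, Acadm to 0.215 and the Hsd17b4 probe of membrane A to 0.109, with Etfa at -0.0612. Without male old replicate 4 Hadh came to 0.113 and Acadm to 0.0867, and without female middle-aged replicate 1 Acadm came to 0.0804. With the first 2 principal components as covariates the values were 0.0806 for Hadh, 0.09 for Acadm, 0.0415 for the Hsd17b4 probe of membrane A and -0.164 for Etfa. Without the 6 mice at the low end of the first component that Hsd17b4 probe came to 0.0838. Over all probes 0% were called and 5.99% had an unadjusted p under 0.05.

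Comparisons with young adults share those mice with the selecting contrast, which raises the young adult values by choice. Middle-aged minus young adult lay below 0 for all 6 probes, from -0.188 to -0.014 array SD, where 3511 of all 7151 genes did. Each had adjusted p = 1 by limma, and none an unadjusted p under 0.05, against 0.509% of all probes. Old minus young adult ran from -0.148 (Echs1) to 0.0757 (Hadh), with adjusted p from 0.685 to 0.949 and none of the 6 unadjusted under 0.05, against 6.17% of all probes. No probe of the table was called in either (0%).

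Adult females and males lay close together. Female minus male ran from -0.0498 ± 0.109 array SD for Echs1 to 0.114 ± 0.0839 for the Hsd17b4 probe of membrane A, over 12 females and 12 males, with adjusted p = 1 for all 6 probes by limma. The intervals reached from -0.272 to 0.285 at the outside. The sexes did not differ in old minus young adult beyond the spread either: the interaction ran from -0.274 to 0.114, with adjusted p = 1. No probe was called in these comparisons (0%), while 1.18% and 0.497% of all probes had an unadjusted p under 0.05.

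In juveniles, whose values entered the selection with the sexes averaged, female minus male was 0.347 ± 0.186 array SD for Echs1 (females 1.22 ± 0.235, males 0.87 ± 0.628, SD, n = 4 each) and 0.34 ± 0.144 for the Hsd17b4 probe of membrane A, with adjusted p = 0.422 for each by limma. Of the 6 probes, 1 had an unadjusted p under 0.05, that of Hsd17b4 on membrane A (0.0248 in the limma fit), where 10.2% of all 16896 probes had one and 0% were called. Without the 44-day male these differences were 0.0408 and 0.237. The juvenile sexes also differed in age: 2 of 4 females and 1 of 4 males were 17 to 21 days old. The comparison was not adjusted for that step, so sex and age cannot be fully told apart in it.

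**Figure D2:**
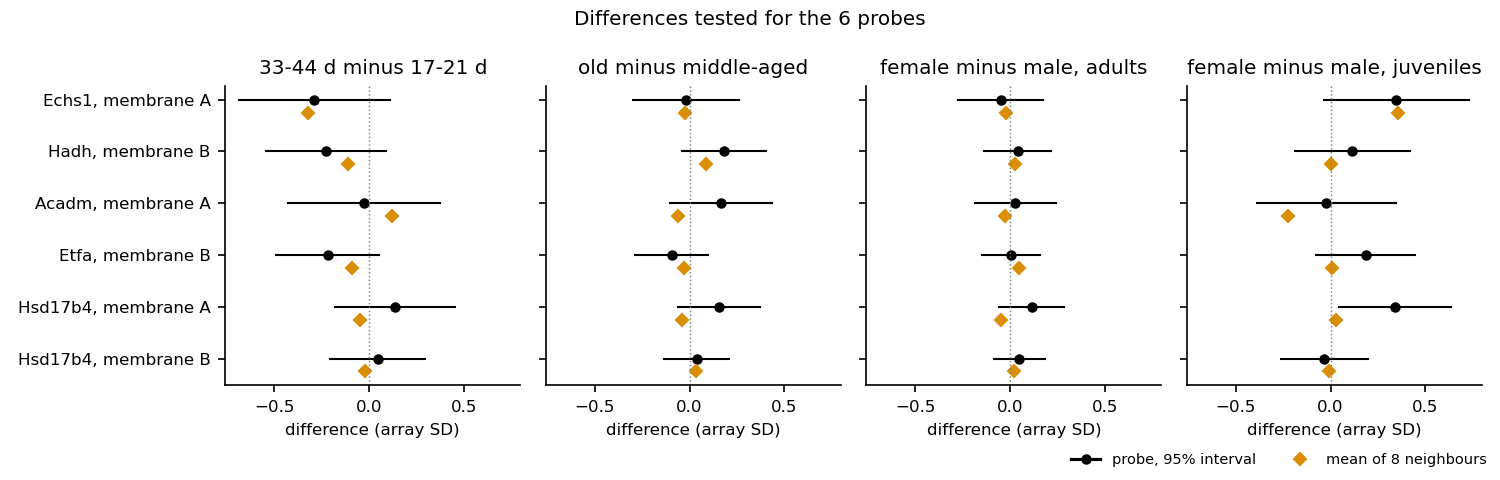
Each panel plots 1 tested comparison: the difference in array SD of each probe with its 95% interval (black), and the mean difference of its 8 neighbours at 22, 44, 66 and 88 positions before and after it in the probe order (diamonds). The interval of the Hsd17b4 probe of membrane A in juvenile females minus males, 0.0462 to 0.634, is the only one of the 24 plotted that excludes 0.

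Several of the 6 probes varied together with other probes at regular distances in the probe order. The probes 22, 44, 66 and 88 positions before and after Echs1, which are probes of other genes or of none, had a mean deviation that correlated with Echs1 at r = 0.906 over the 32 mice, and at 0.714 without the 44-day male. For Hadh the r was 0.896, for the Hsd17b4 probe of membrane B 0.813 and for Etfa 0.672. Acadm (0.0578) and the Hsd17b4 probe of membrane A (-0.134) did not move with the probes at these distances. Acadm did correlate with the probe directly beside it, that of Sdhb, at 0.851. In the 44-day male Echs1 deviated by -1.33 array SD from its mean and its neighbours by -1.2. Hadh deviated by -0.691 and its neighbours by -0.364, and Etfa by -0.549 against -0.201. The Hsd17b4 probe of membrane A, also at its lowest in this mouse, deviated by -0.579 while its neighbours deviated by -0.0025. Acadm deviated by -0.338 against 0.338, and the Hsd17b4 probe of membrane B by -0.106 against 0.0154.

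The neighbours of Echs1 had differences close to its own: their mean difference was -0.324 array SD from the suckling to the weaned age and 0.356 for juvenile females minus males, next to -0.289 and 0.347 for Echs1 itself. At the step the neighbours of Hadh came to -0.11 and those of Etfa to -0.0902, and those of Acadm (0.119) and of the Hsd17b4 probes (-0.0473 on membrane A, -0.0184 on membrane B) had the opposite sign to their probe. With each mouse's neighbour deviation subtracted, the Echs1 step became 0.0355 ± 0.103 and its juvenile sex difference -0.00875 ± 0.0942. The same subtraction left -0.117 ± 0.0718 for Hadh and -0.127 ± 0.099 for Etfa at the step, while Acadm went from -0.0271 ± 0.196 to -0.147 ± 0.206. In old minus middle-aged it left 0.0973 ± 0.0508 for Hadh. It gave 0.228 ± 0.141 for Acadm and 0.192 ± 0.124 for the Hsd17b4 probe of membrane A. Both lay further from 0 than before but with a larger SE (0.132 and 0.106 before), and neither probe moved with the neighbours at these distances. In the selecting contrast the subtraction left 0.133 for Echs1.

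**Figure D3:**
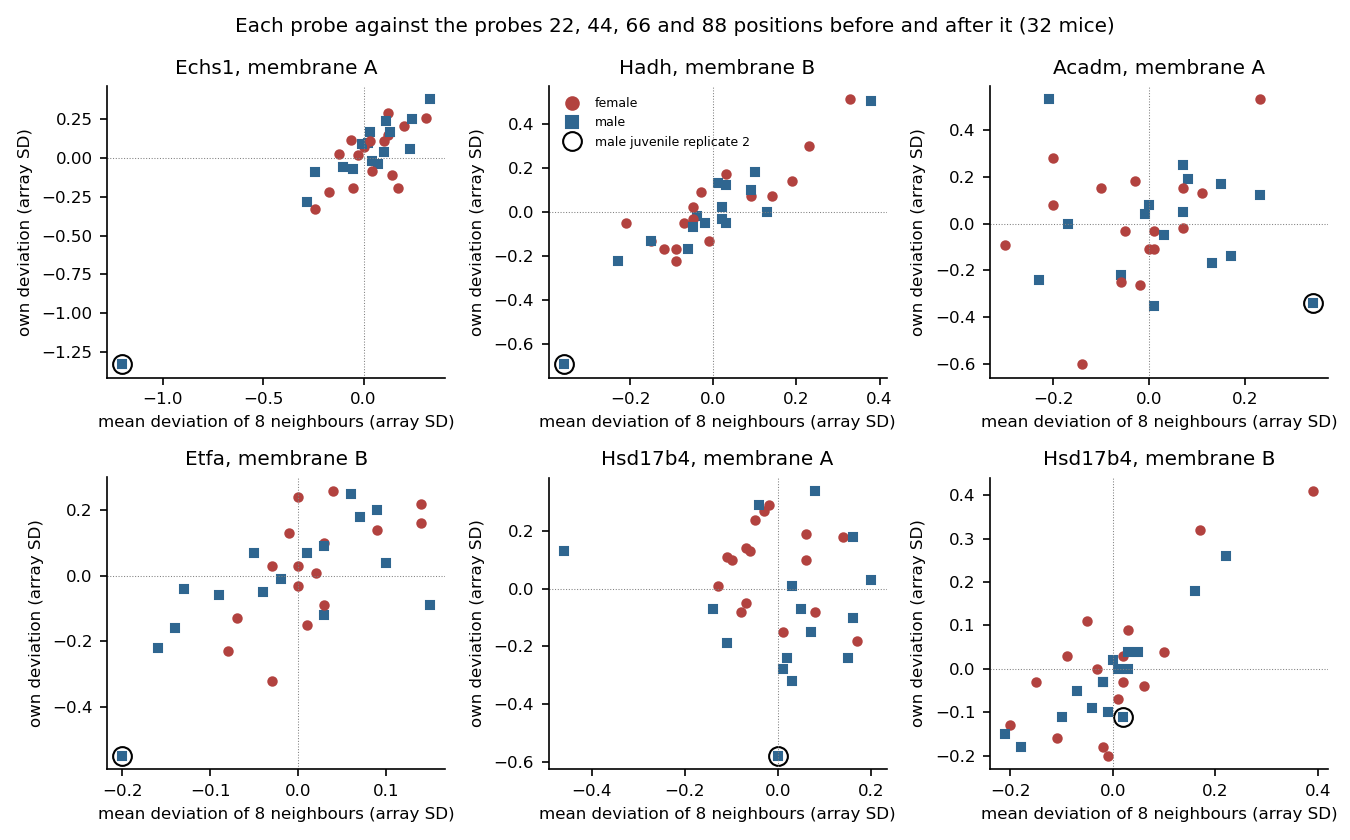
For each probe the deviation from its mean over all mice, in array SD, is plotted against the mean deviation of its 8 neighbours in the probe order, 1 point per mouse (circles for females, squares for males). Points follow a line for Echs1, Hadh and the Hsd17b4 probe of membrane B, and form no line for Acadm and the Hsd17b4 probe of membrane A; the ringed 44-day male lies at the far lower left for Echs1, Hadh and Etfa.

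Among themselves the 6 probes correlated positively in all 15 pairs over the 32 mice (r from 0.128 to 0.742, median 0.538), 8 of them above 0.5. Without the 44-day male the median was 0.364 and 3 pairs were above 0.5: Acadm with the Hsd17b4 probe of membrane B at 0.738, Hadh with that probe at 0.69, and Hadh with Acadm at 0.669. These are descriptions over mice that share sex, age and array effects.

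The genes most like each probe were taken as the 3 with the highest r on its membrane over 32 mice, leaving out probes at multiples of 11 positions up to 110 away. For Echs1 they were Rbm39 (0.876), Gigyf2 (0.869) and Rps6kc1 (0.85), for Hadh Btbd1 (0.921), Tap2 (0.882) and Ing5 (0.872), and for Acadm Sdhb (0.851), Copb2 (0.795) and Prpf19 (0.782). Sdhb, a subunit of succinate dehydrogenase, is the probe next to Acadm in the probe order. For Etfa they were Usp34 (0.854), Ms4a6d (0.842) and Gtf2i (0.822). For Hsd17b4 they were Plcb3 (0.79), Trpm7 and Myo1e (0.762 each) on membrane A, and Cops7a (0.852), Cisd1 (0.827) and Cfdp1 (0.824) on membrane B.

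None of these 18 belonged to the fatty acid oxidation lists (0 of 18), and 8 of 18 lay at a multiple of 22 positions from the probe they resembled. Of the 100 probes most like Echs1, 44 lay at such a multiple, where 4.53% of all probes lie. The count was 20 for Etfa, 16 for Hadh, 8 for Acadm, and 5 and 6 for the Hsd17b4 probes of membranes A and B. Multiples of 22 were the most frequent class of distance only for Echs1. Counted by the remainder of the distance after division by 22, other classes held more for the rest: 46 of 100 at a remainder of 15 for Etfa, 40 at 1 for the Hsd17b4 probe of membrane B, 36 at 17 for Hadh, 21 at 20 for Acadm and 16 at 18 for the Hsd17b4 probe of membrane A.

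Of 100 fatty acid oxidation genes listed by role, 45 were measured, 40 of them besides the 5. None of their 52 probes was called in any of the 7 tested comparisons. At the step from the suckling to the weaned age 18 of 45 genes lay above 0 (40%, median -0.0257 array SD), where 54% of all genes did (median 0.0186), and 17 of the 40 others. The count was 22 of 45 after quantile normalisation and 23 of 45 after scaling to median and median absolute deviation, and 24 of 45 without male juvenile replicate 3, the 17-day male. The mitochondrial spiral had 7 of 19 above 0. Its dehydrogenase Acads had the highest value of the spiral (0.499 ± 0.489) and Pcca, of propionyl-CoA carboxylase, the lowest (-0.35 ± 0.248). Echs1 (-0.289) and Hadh (-0.227) lay near the low end: they came next above Pcca, followed by Acaa2 at -0.156. Etfdh, which takes electrons from the flavoprotein to ubiquinone, read -0.227 ± 0.217, close to the -0.217 of Etfa.

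The 3 other listed genes with the smallest p at this step were Cpt2, Pex19 and Scp2, each with adjusted p = 0.891 by limma. Cpt2, the inner carnitine palmitoyltransferase, read 0.26 ± 0.0964 array SD (SD, n = 3) at the suckling age and -0.028 ± 0.203 (n = 5) after it, a difference of -0.267 ± 0.122 within sex. Pex19, which brings membrane proteins to peroxisomes, differed by 0.317 ± 0.188 on membrane A and by -0.204 ± 0.162 on membrane B, so its probes disagreed in sign (mean 0.0564). The peroxisomal thiolase and sterol carrier Scp2 differed by -0.309 ± 0.204, and its other probes, also on membrane B, by -0.179 and -0.209.

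For old minus middle-aged, 29 of 45 genes lay above 0 (64.4%, median 0.0679 array SD), where 46.7% of all genes did (median -0.0115), and 26 of the 40 others. The count was 22 of 45 with the first 2 principal components as covariates and 25 of 45 without male old replicate 4. All 8 measured peroxisomal genes lay above 0, from 0.00292 for Amacr, a racemase of branched acyl-CoA, to 0.193 for the oxidase Acox3, with 0.105 for catalase (Cat), 0.113 for the transporter Abcd3 and 0.0956 for the mean of both Hsd17b4 probes; none of their probes was called. The count was 7 of 8 after either rescaling of the arrays, 4 of 8 with the first 2 principal components as covariates and 5 of 8 without male old replicate 4. Each gene is counted by the mean of its probes. For Pex19 the probes differed in sign, -0.0583 ± 0.133 on membrane A and 0.107 ± 0.113 on membrane B (mean 0.0242). The uptake and activation genes had 1 of 5 above 0. Of these, Acsl4 (mean -0.00396) and Acbd3 (mean -0.0167) had probes that differed in sign, -0.213 and 0.205 for Acsl4 and -0.0712 and 0.0379 for Acbd3. The 6 regulators had 4 above 0. Among them Ppara, which encodes PPAR alpha, read -0.259 ± 0.152 and the coactivator Ppargc1b 0.268 ± 0.155, each with adjusted p = 0.653 by limma.

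The 3 with the smallest p among adults were Dbi, Slc27a4 and Acox3, each with adjusted p = 0.653 by limma. Dbi, the acyl-CoA binding protein, came to -0.145 ± 0.0651, with 0.722 ± 0.142 array SD (SD, n = 8) in old and 0.866 ± 0.0627 (n = 7) in middle-aged mice. The fatty acid transporter Slc27a4 came to -0.183 ± 0.0958 and Acox3 to 0.193 ± 0.102. The 58 measured respiratory chain genes had 28 above 0 in this comparison and 30 of 58 at the juvenile step. In the selecting contrast, as a description, 43 of 58 lay above 0 (74.1%). There 31 of 45 fatty acid oxidation genes (68.9%) did, a count that holds the 5 selected genes. Without them it was 26 of 40 (65%), where 49% of all genes lay above 0. In middle-aged minus young adult 17 of 58 and 17 of 45 lay above 0, against 50.9% of all genes, and 17 of the 40 others. In old minus young adult 17 of 58 and 26 of 45 did, against 45.1%, and 24 of the 40 others.

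**Figure D4:**
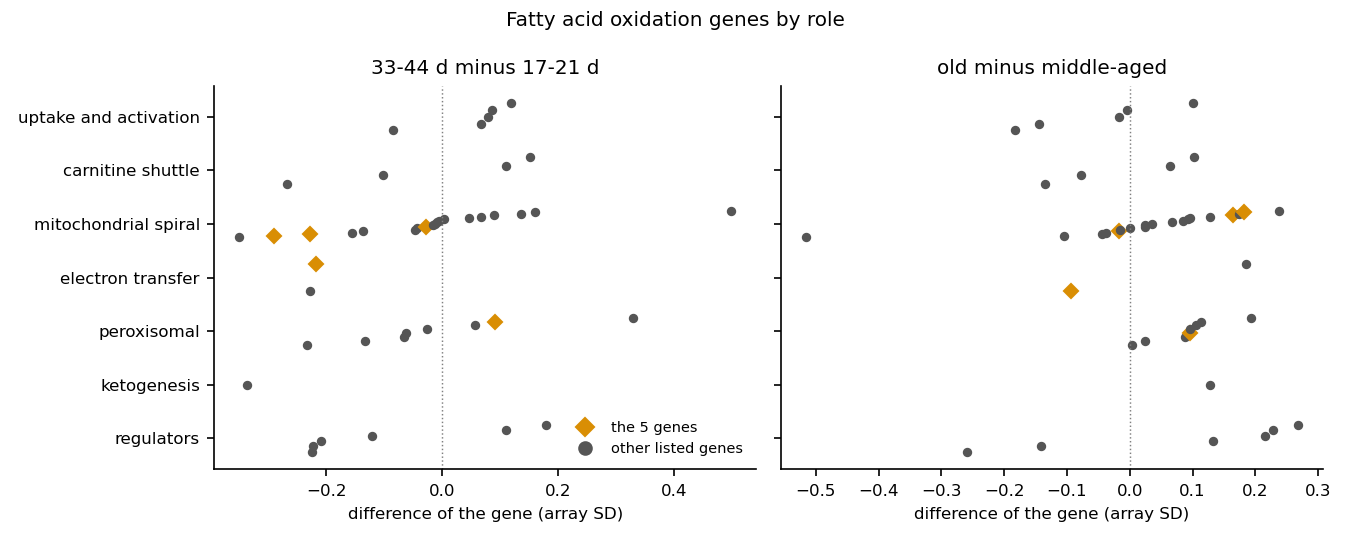
Each point is 1 of the 45 measured fatty acid oxidation genes, placed by its difference in array SD (the mean of its probes) and grouped by role; diamonds are the 5 genes. At the juvenile step (left) Echs1, Hadh and Etfa lie below 0 within roles whose genes fall on both sides or, for electron transfer, below; in old minus middle-aged mice (right) all 8 peroxisomal genes lie above 0 (7 after either rescaling of the arrays) and none was called.

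Levels of the markers of other cell types are given beside these values, and the cholangiocyte genes differed between ages by about as much as the probes above. Each level is a mean over probes, so that genes with more probes weigh more. The 7 hepatocyte genes had 9 probes, the 6 blood genes 22 and the 8 endothelial and stellate genes 13. The 7 measured hepatocyte genes had a mean level of 1.17 array SD at the suckling age (mice from 1.07 to 1.24) and 1.15 after it (0.974 to 1.3), and of 1.15 in middle-aged and 1.18 in old mice. The 6 blood genes had 0.0941 (0.0259 to 0.14) and 0.138 (0.0227 to 0.279) at the juvenile ages, the 4 macrophage genes 0.36 and 0.402, and the 8 endothelial and stellate genes 0.306 and 0.302. The 4 cholangiocyte genes read -0.688 (-0.925 to -0.537) and -0.456 (-0.735 to -0.147) at the juvenile ages, -0.477 in middle-aged and -0.729 in old mice. The 1 measured muscle gene reached 2.48 in a mouse of 33 to 44 days, where the highest mouse of the other classes read 0.63. The part of these cells in the results was not tested, and in whole liver fewer cells of a type and less RNA per cell cannot be told apart.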

How the data were processed

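Per the labels' protocols, cDNA made from total RNA carried a 33P-dCTP label. Deposited values are z-scores, a score with mean 0 and SD 1 in every array, as the values themselves show; for image reading, background treatment and any transform, the method is not given in the sources used here. They were used as deposited. Samples were grouped by sex and age in the labels, and the arrays of a mouse joined by its title number. Replicate numbers pair no mice. Genes were named from probes with 1 annotated symbol (9663 of 16896), updated through RefSeq (GRCm38.p6).

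The genes and lists were chosen with earlier results of these data known. Each membrane was fitted with limma 3.58.1 (lmFit, eBayes, two-sided) in R 4.3.3, with 8 group means over 32 mice and an indicator at 21 days for the juvenile step; adjustment was by Benjamini-Hochberg over both membranes together, with a threshold of 0.05. The script was tested on simulated data. The number of arrays limits the precision: the median SE over all probes was 0.183 array SD at the step and 0.126 for old minus middle-aged.

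Named besides the 5 genes were listed genes past the threshold or, where none passed, the 3 with the smallest p in each of the juvenile step and old minus middle-aged, and the 3 most similar genes per probe; Xist, Uty, Eif2s3y, and the listed genes given as extremes or as role partners, were picked after their values were seen. Alternatives were quantile normalisation, scaling to median and median absolute deviation, leaving out the dimmest 25% of probes, eBayes with trend and robust, adjustment within a membrane, title-number sets as a block, subtraction of neighbours' deviations from group means, 5 age classes and sex or juveniles alone for the step, adults alone for old minus middle-aged, and leaving out 6 mice, the old male with the differing description, or each mouse. The 6 mice lie at the low end of the first principal component, opposite to the 44-day male, which this setting keeps: female old 2, male old 2, female juvenile 2, female juvenile 3, male young adult 3 and female young adult 3, by replicate. Subtraction of neighbours' deviations from the mean of all mice, and the first 2 principal components as covariates, were added after seeing the data.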

Additional observations from a re-analysis of the deposited data

Results flagged for a closer look

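Within groups of 4 to 10 mice, 72 gaps between the lowest or highest mouse and its nearest neighbour were compared with the range of the group, and 6 were wider than the 95% critical value of Dixon's test; chance gives about 1 in 20, and the groups overlap. Male juvenile replicate 2, the 44-day male, gave 5 of them. Its Echs1 level of -0.05 array SD lay under the other 7 juveniles (0.95 to 1.43). Its Hadh level of -0.83 lay under the other mice of 33 to 44 days (-0.36 to -0.19) and under all other juveniles (-0.36 to -0.04). Its Etfa level of -0.22 lay under the other mice of 33 to 44 days (0.17 to 0.30) and under all other juveniles (0.17 to 0.46). In female young adult replicate 1 Etfa read 0.01, where the other 3 females of that class read 0.55 to 0.59.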

How the results depend on the processing

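No paired analysis was possible because replicate numbers were given in record order and the mice of a number share nothing by the labels. Across the other settings and leaving out each of the 32 mice, no comparison gained or lost a called probe, except as follows. Subtracting the neighbours' deviations from the group means called 1032 probes in old minus middle-aged and 1096 in old minus young adult. It called 47 in adult females minus males and 2217 in juvenile females minus males. Hadh was among those called in old minus middle-aged (adjusted p = 0.0294, limma), and Echs1 in juvenile females minus males (0.0151, limma). By construction this subtraction takes shared noise out of the spread and leaves it in the group means, so its p-values are too small. With deviations from the mean of all mice the counts were 0. Leaving out a mouse gave 0 to 1 called probes at the juvenile step, the 1 without male juvenile replicate 3.

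The sign of a difference turned in the following settings. Both neighbour settings gave 0.0355 for Echs1 at the step; subtraction from the mean of all mice gave 0.00813 for Echs1 in old minus middle-aged, -0.0445 for Etfa in adult females minus males, and -0.00875 for Echs1 and 0.201 for Acadm in juvenile females minus males. The block gave 0.00309 for Echs1 in old minus middle-aged. Without the 6 mice at the low end of the first component, the Hsd17b4 probe of membrane B read -0.0154 in old minus middle-aged, and Hadh -0.00722, Acadm -0.0136 and Etfa -0.0481 in adult females minus males. Without the old male with the differing description Acadm read -0.006 and Etfa -0.0168 there. With 2 principal components these were -0.00233 and -0.0166, with -0.011 for the Hsd17b4 probe of membrane B in old minus middle-aged and -0.063 for Hadh in juvenile females minus males. Quantile and median scaling gave -0.00594 and -0.00997 for Etfa in adults, and 0.0251 and 0.0266 for Acadm in juveniles, by sex. The cause of these turns was not tested.

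Leaving out each mouse, the ranges that crossed 0 were, at the step, -0.098 to 0.1 for Acadm and -0.00765 to 0.11 for Hsd17b4 on membrane B; in old minus middle-aged, -0.0483 to 0.0112 for Echs1 and -0.0254 to 0.0729 for Hsd17b4 on membrane B; in adults by sex, -0.0177 to 0.0837 for Acadm and -0.0168 to 0.0515 for Etfa; and in juveniles by sex, -0.0475 to 0.216 for Hadh, -0.107 to 0.0933 for Acadm and -0.0833 to 0.0367 for Hsd17b4 on membrane B.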
